A study of Homo sapiens with 8 samples.

Results

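Apolipoproteins are the protein components of plasma lipoproteins, and hepatocytes secrete most of them. APOB is the structural protein of very low density lipoprotein (VLDL), onto which the microsomal triglyceride transfer protein encoded by MTTP loads lipid in the endoplasmic reticulum. APOA1 and APOA2 are the main proteins of high density lipoprotein (HDL), whereas APOA5, APOC1, APOC3 and APOE regulate lipolysis by lipoprotein lipase or the uptake of remnants.

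The genes examined were APOA1, APOA2, APOA5, APOB, APOC1, APOC3, APOE, APOH, APOM and MTTP (10 genes, chosen by symbol). All 10 were present among the 25603 genes of the expression table. They were followed in HepG2 cells, an established human hepatocarcinoma line, kept for 4 days in UNC1999 plus valemetostat tosylate (1 µM of each, a combination called EZHi) or in vehicle, which was DMSO at 0.2% by the labels, although the methods state a lower concentration. Both compounds inhibit the polycomb methyltransferases EZH1 and EZH2, which place the repressive mark H3K27me3. Each group comprised 4 RNA-seq libraries, numbered 1 to 4 in both groups, and both groups were the same cell line grown with insulin and dexamethasone, so the values describe a tumour line and not primary hepatocytes. The study describes the libraries of a group as independent biological replicates, and p-values from a fit with group only measure the spread between them. Where the replicate number is added to the fit, as described below, p-values measure the spread of the differences within replicate numbers instead.

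Expression is given as a length-corrected log2 value, and levels are also expressed as an estimated FPKM, that is fragments per kilobase of transcript scaled to library size. A gene was called when its adjusted p (limma, Benjamini-Hochberg adjustment over all 20153 genes tested) was under 0.05. Libraries that bore the same replicate number deviated together, with correlations across genes of 0.31, 0.56, 0.63 and 0.22 for replicates 1 to 4. The highest correlations with a different replicate number in the other group were 0.199, 0.199, 0.076 and 0.076, so the margin was smaller for replicates 1 and 4. A fit with the replicate number as a block is therefore given beside the fit with group only. All 8 hepatocyte markers examined were expressed, with mean estimated FPKM from 156 for FGB to 16199 for AFP. Their sum, to which AFP and ALB (10106) contributed most, ranged from 23750 to 46924 in vehicle and from 25608 to 41784 in EZHi. Of 12 markers of cholangiocytes, fibroblasts, macrophages and endothelial cells, 8 were in the table, and their sum ranged from 337 to 643 in vehicle and from 467 to 681 in EZHi, with KRT19 and SOX9 as the main contributors.

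With group as the only term, none of the 10 genes was called (0 higher and 0 lower, with 0 at an unadjusted p under 0.05), whereas 13.1% of all genes tested were called, 8.85% higher and 4.27% lower. The balance of these calls depended on scaling and abundance. After centring on highly expressed genes, 2304 genes were called higher and 398 lower, against 1784 and 860 as deposited, and where the estimated FPKM reached at least 10, higher calls made up 2.73% of genes and lower calls 9.16%. With the replicate block, APOB, APOA1, MTTP, APOC3 and APOH were called higher in EZHi (5 of 10) and 0 were called lower, against 14.9% called higher and 15.1% called lower among all genes (30% in all). In that more abundant class, which holds 9 of the 10 genes, the block called 8.2% of genes higher and 32.5% lower. The log2 fold change was positive for 9 of the 10 genes, with a median of 0.22, compared with -0.0077 over all genes tested and -0.095 over genes whose estimated FPKM reached 10. This count of 9 was the same as deposited, after rescaling by the median of ratios and after centring on highly expressed genes. It was 8 after quantile normalization, where APOM turned negative and APOA2 had a change of 0. Without vehicle replicate 2 it fell to 5, because APOM, APOA5, APOC1 and APOC3 turned negative beside APOA2, and without EZHi replicate 4 it was 7. Such group-only fits keep the other library of the same replicate number. With the block and both libraries of replicate 2 left out, APOM (0.094), APOA5 (0.032), APOC1 (0.037) and APOC3 (0.21) stayed positive. Without both libraries of replicate 4, APOM (-0.11) and APOC1 (-0.054) were negative. The changes were small, and values of the 2 groups overlapped for each of the 10 genes (18.6% of all genes tested did not overlap). In bulk RNA, a change in the share of cells that express a gene and a change in RNA per cell cannot be told apart.

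**Figure D1:**
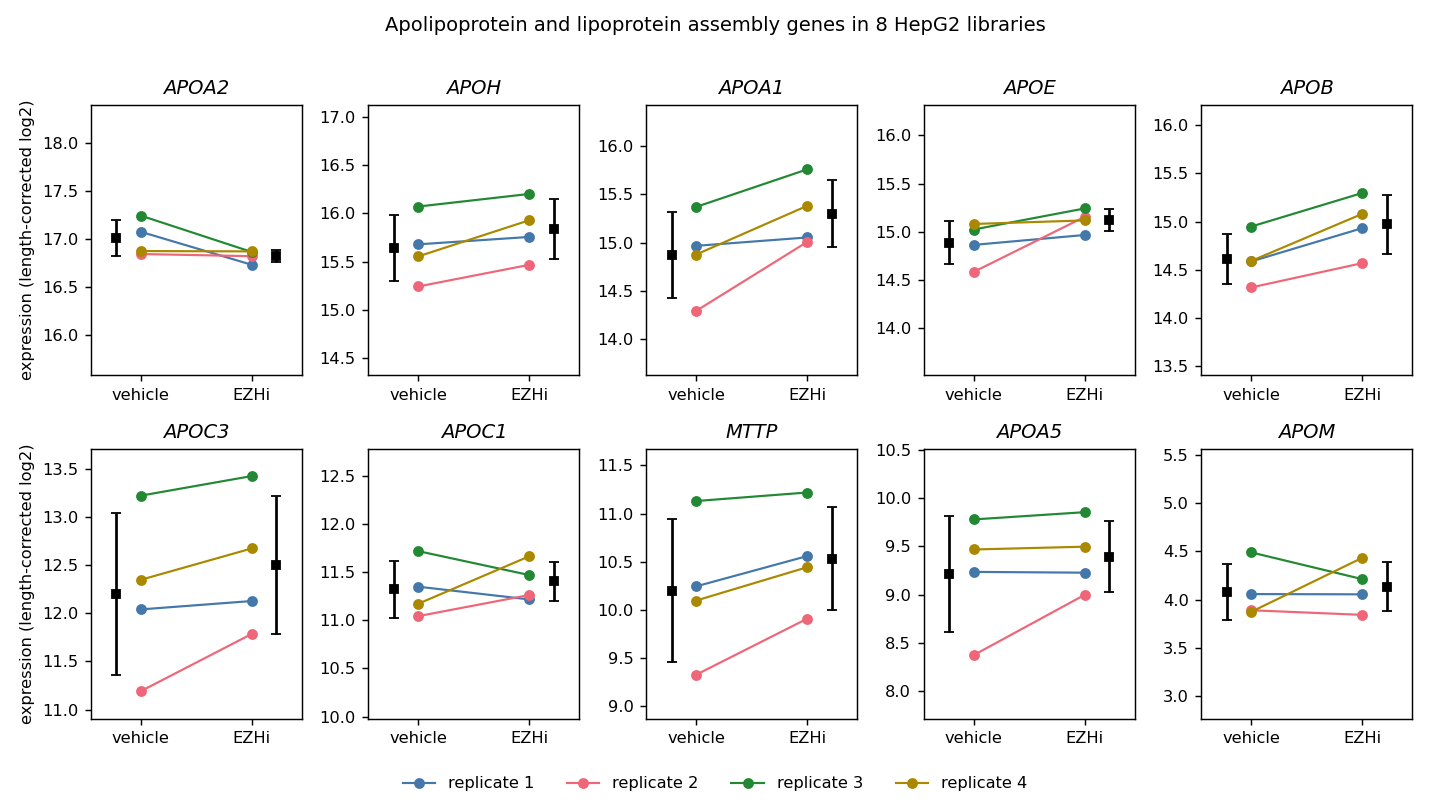
Expression of each gene (y axis, length-corrected log2 value, 2.8 units in every panel) in the vehicle and EZHi libraries. Lines join libraries with the same replicate number, and black squares with bars are the mean and SD of 4 libraries. Replicate 3 lies highest and replicate 2 lowest for most genes in both groups, and the lines of APOA1, APOB, APOC3, APOE, APOH and MTTP all slope upward.

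Promoter windows are shown as a description of sequence only. Windows were taken from RefSeq (GRCh38.p14), which matched 7 of the 10 genes (11 windows), and APOA1, APOB and APOC3 were not matched. Each window runs from 250 to 26 bases before an annotated start, on the strand of the gene. A pair of motifs was searched on both strands, chosen after the sequences had been seen. The first is TTAAT followed, after any 2 bases, by TTAA, a relaxed form of the palindrome bound by HNF1 factors, and it occurred in 0.396% of 35116 windows of the same length. The second is AAAGGTCA, a nuclear receptor half-site, which occurred in 0.957% of them. No match overlapped another, and matches describe letters and not binding. The windows with a match belong to MTTP, APOH and APOA5. Because the motifs were chosen from these sequences, the shares over all windows do not test for an excess. Any relation of the matches to the expression values was not tested. Capitals mark the matches.
MTTP: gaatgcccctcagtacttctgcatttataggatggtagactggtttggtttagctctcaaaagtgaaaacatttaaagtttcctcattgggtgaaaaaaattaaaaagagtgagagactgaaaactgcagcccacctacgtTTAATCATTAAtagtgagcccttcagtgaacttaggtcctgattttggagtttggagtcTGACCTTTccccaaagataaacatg
APOH: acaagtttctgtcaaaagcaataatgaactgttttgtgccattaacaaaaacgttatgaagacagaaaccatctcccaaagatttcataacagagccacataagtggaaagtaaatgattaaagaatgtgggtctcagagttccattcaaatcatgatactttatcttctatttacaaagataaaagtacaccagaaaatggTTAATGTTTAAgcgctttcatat
APOA5: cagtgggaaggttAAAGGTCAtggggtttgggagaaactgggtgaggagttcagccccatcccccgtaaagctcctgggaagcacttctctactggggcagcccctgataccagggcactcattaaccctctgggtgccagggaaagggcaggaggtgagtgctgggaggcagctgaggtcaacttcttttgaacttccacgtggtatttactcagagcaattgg

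The MTTP window (chr4:99574574-99574798, plus strand) lies within the MTTP gene of GENCODE, overlaps no annotated exon and precedes an annotated start inside the gene. It holds the HNF1-like motif 109 to 99 bases before that start and the half-site, read on the opposite strand, 50 to 43 bases before it. The APOH window (chr17:66229441-66229665, minus strand), also within its gene and outside annotated exons, holds the HNF1-like motif 48 to 38 bases before the start. The APOA5 window (chr11:116792446-116792670, minus strand) lies outside annotated genes and holds the half-site 237 to 230 bases before the start. The other 8 windows, including those of APOA2, APOC1, APOE and APOM, held neither motif in these letters.

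VLDL assembly genes were considered first. APOB (ENSG00000084674, GRCh38 chromosome 2, 21001429 to 21044073, minus strand) was at 14.59, 14.32, 14.95 and 14.59 on the log2 scale in vehicle replicates 1 to 4, and at 14.93, 14.57, 15.30 and 15.08 in the EZHi replicates. Each EZHi library was above its vehicle counterpart, although EZHi replicate 2 was below 3 of the vehicle libraries. The mean rose from 14.61 ± 0.26 (SD, n = 4) to 14.97 ± 0.31 (SD, n = 4) in the blocked fit, a difference of 0.36 or 1.28-fold (SE 0.06, limma adjusted p 0.00155). With group only, the standard error was 0.17 and the limma adjusted p was 0.214. The differences within replicate numbers ranged from 0.25 to 0.49, the narrowest spread among the 10 genes (SD of 0.10).

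MTTP (ENSG00000138823, chromosome 4, 99564081 to 99623997, plus strand) was at 10.24, 9.33, 11.13 and 10.10 in vehicle and at 10.56, 9.91, 11.22 and 10.44 in EZHi. The vehicle libraries alone covered 1.80 units, from replicate 2 at the bottom to replicate 3 at the top, and the EZHi libraries followed the same order at the extremes. It was higher by 0.33 in EZHi, and the SE of this difference was 0.07 with the block (limma adjusted p 0.00826) against 0.36 with group only (limma adjusted p 0.627). All 4 differences within replicate numbers were positive, from 0.09 to 0.58. A non-coding gene on the opposite strand (ENSG00000248676) overlaps MTTP, with an estimated FPKM of 0.609 against 55.9 for MTTP. Reads were counted without regard to strand, so these levels do not show whether reads shared by both genes were lost to MTTP.

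The estimated changes of the HDL apolipoproteins differed in sign, but those of APOA2 and APOM were called in neither fit. Differences between these genes were not tested. APOA1 (ENSG00000118137, chromosome 11, 116835751 to 116837622, minus strand), the main HDL protein and activator of LCAT, was at 14.97, 14.29, 15.37 and 14.88 in vehicle and at 15.05, 15.01, 15.76 and 15.38 in EZHi. The lowest vehicle library, replicate 2, showed the largest difference (0.72), and replicate 1 the smallest (0.09). The mean rose from 14.88 ± 0.45 (SD, n = 4) to 15.30 ± 0.35 (SD, n = 4) in the blocked fit, a difference of 0.42 or 1.34-fold (SE 0.09, limma adjusted p 0.00812). With group only, the limma adjusted p was 0.284. With group only, the difference was 0.23 without vehicle replicate 2 and 0.59 without vehicle replicate 3. APOA1-AS, which lies on the opposite strand over APOA1, had an estimated FPKM of 0.167 against 1414 for APOA1, and the treatment of shared reads is uncertain as for MTTP.

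APOA2 (ENSG00000158874, chromosome 1, 161222292 to 161223631, minus strand), the second HDL protein, was the most abundant of the 10 transcripts and the one with a negative change. It was at 17.07, 16.84, 17.24 and 16.87 in vehicle and at 16.73, 16.82, 16.86 and 16.87 in EZHi. Replicates 1 and 3 differed by -0.34 and -0.38, while replicates 2 and 4 differed by -0.023 and -0.0034, so the 4 differences shared a sign but fell into a large pair and a pair near 0. The log2 fold change was -0.19, with a limma adjusted p of 0.328 with group only and 0.144 with the block. The spread among EZHi libraries (SD of 0.06) was smaller than that among vehicle libraries (SD of 0.19).

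APOM (ENSG00000204444, chromosome 6, 31652416 to 31658210, plus strand), an HDL protein that carries sphingosine-1-phosphate, was at 4.06, 3.89, 4.49 and 3.87 in vehicle and at 4.05, 3.84, 4.21 and 4.43 in EZHi. The log2 fold change of 0.06 had a limma adjusted p of 0.878 with group only and 0.807 with the block, and 3 of 4 differences were negative. The level of APOM in this table cannot be compared with the other genes. The 65 protein-coding genes in the table within 2 Mb on either side of it, a window chosen after values were seen, had a median estimated FPKM of 0.0995, against 9.19 over 15505 protein-coding genes, and genes of this region that most cells express were also low, with TUBB at 0.12 and BAG6, which overlaps APOM on the opposite strand, at 0.694. The cause was not tested.

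The regulators of lipolysis and remnant uptake came next. APOC3 (ENSG00000110245, chromosome 11, 116829706 to 116833072, plus strand), an inhibitor of lipoprotein lipase and of remnant uptake, was at 12.04, 11.19, 13.22 and 12.35 in vehicle and at 12.13, 11.79, 13.42 and 12.67 in EZHi. It was the most variable of the 10 genes between libraries of one group, with a range of 2.03 in vehicle and 1.64 in EZHi. All 4 differences within replicate numbers were positive, from 0.09 to 0.59, and the log2 fold change was 0.30. The standard error was 0.44 with group only (limma adjusted p 0.728) and 0.08 with the block (limma adjusted p 0.0157).

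APOA5 (ENSG00000110243, chromosome 11, 116789367 to 116792420, minus strand), which enhances lipolysis, was at 9.24, 8.37, 9.78 and 9.47 in vehicle and at 9.23, 8.998, 9.85 and 9.50 in EZHi. A difference of 0.63 in replicate 2 stood beside differences of -0.0082, 0.08 and 0.03 in replicates 1, 3 and 4. The log2 fold change of 0.18 was not called with group only (limma adjusted p 0.751) or with the block (limma adjusted p 0.212).

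APOE (ENSG00000130203, chromosome 19, 44905791 to 44909393, plus strand), the ligand through which remnants bind their receptors on hepatocytes, was at 14.86, 14.58, 15.02 and 15.08 in vehicle and at 14.97, 15.15, 15.24 and 15.12 in EZHi. Each difference within a replicate number was positive, with replicate 2 at 0.57 and replicate 4 at 0.04. The log2 fold change of 0.23 had a limma adjusted p of 0.243 with group only and of 0.0716 with the block.

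APOC1 (ENSG00000130208, chromosome 19, 44914247 to 44919349, plus strand), which inhibits the cholesteryl ester transfer protein, was at 11.35, 11.04, 11.72 and 11.17 in vehicle and at 11.22, 11.26, 11.47 and 11.66 in EZHi. The differences were negative in replicates 1 and 3 (-0.13 and -0.25) and positive in replicates 2 and 4 (0.22 and 0.49). The log2 fold change of 0.08 was not called (limma adjusted p 0.789 with group only, 0.623 with the block). APOC1 has a closely related pseudogene, so the division of reads between them is uncertain. A gene without a symbol (ENSG00000280087, estimated FPKM 0.1065) overlaps APOE and APOC1 on the same strand, and reads shared with it are uncertain too.

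APOH (ENSG00000091583, chromosome 17, 66212033 to 66256525, minus strand), also named beta-2-glycoprotein I, binds anionic phospholipids in plasma. It was at 15.68, 15.24, 16.07 and 15.55 in vehicle and at 15.76, 15.47, 16.20 and 15.93 in EZHi, with replicate 3 highest and replicate 2 lowest in both groups. All 4 differences were positive, from 0.08 to 0.38, and the log2 fold change was 0.20, with a limma adjusted p of 0.568 with group only and of 0.047 with the block. With group only, the difference was 0.070 without vehicle replicate 2 and 0.35 without vehicle replicate 3. In all, 6 of the 10 genes were higher in EZHi in every replicate number and APOA2 was lower in every one, whereas 20.6% and 24.2% of all genes tested did so.

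**Figure D2:**
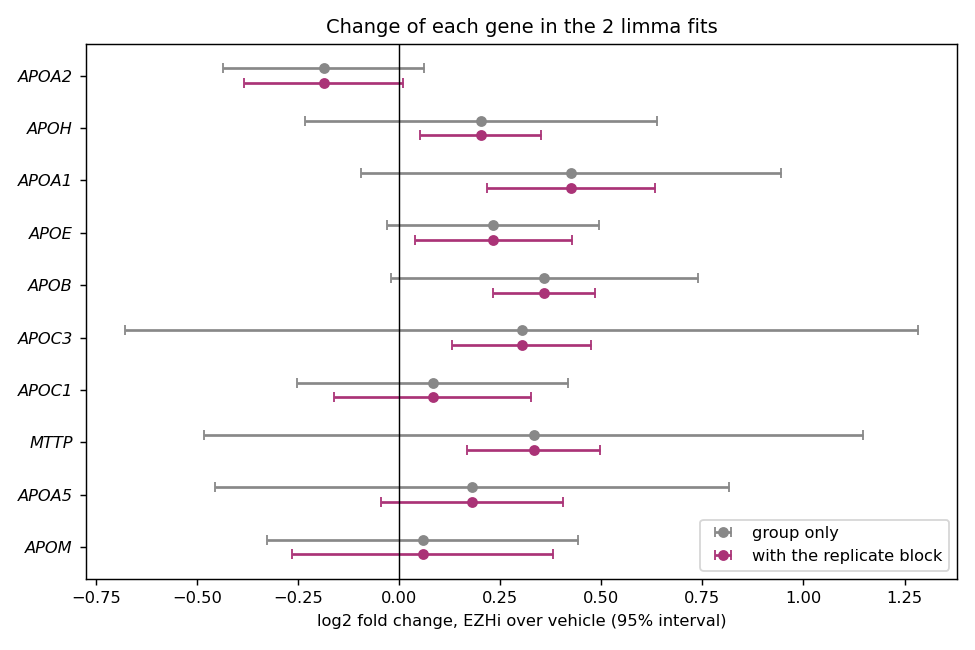
Log2 fold change of each gene, EZHi over vehicle (x axis), with its 95% interval from limma. Grey marks the fit with group only, in which all 10 intervals include 0. Purple marks the fit with the replicate block, in which the intervals of APOB, APOA1, MTTP, APOC3, APOH and APOE lie above 0, the last of these without passing the adjusted threshold.

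The calls with the block were then repeated under 4 other scalings or transformations and without each replicate number, all chosen after seeing the data. APOB, APOA1 and MTTP were called in 8 of 8 such fits. APOC3 was called in 7 and reached a limma adjusted p of 0.0597 without replicate 4. APOH was called in 3 of 8, with limma adjusted p up to 0.182 without replicate 4. It lost its call whichever replicate number was left out and with a pseudocount of 0.5. The number called was 3 without replicate 4, 4 without replicate 1, 2 or 3, and 6 with quantile normalization or centring, where APOE was also called (limma adjusted p 0.0155 and 0.011).

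Replicate number held a larger share of the sum of squares than treatment for most of these genes. With 4 replicate numbers against 2 treatments, noise alone gives replicate number the larger share on average. The shares therefore do not rank the 2 effects within a gene. Of the sum of squares over the 8 libraries, replicate number held 93.3% for APOC3, 89.6% for MTTP, 87.3% for APOA5 and 85.1% for APOH, whereas treatment held 4.80%, 8.11%, 4.16% and 11.3%. For APOA1 and APOB the replicate share was 64.9% and 63.3% and the treatment share 27.3% and 34.8%. For APOE (34.8% and 36.5%) and APOA2 (30.01% and 37.4%), the treatment share was the larger one. The median replicate share was 64.1% over the 10 genes, compared with 46.5% over all genes tested and 53.7% over genes whose estimated FPKM reached 10. The vehicle range had a median of 0.75 over the 10 genes and of 0.28 over those more abundant genes.

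**Figure D3:**
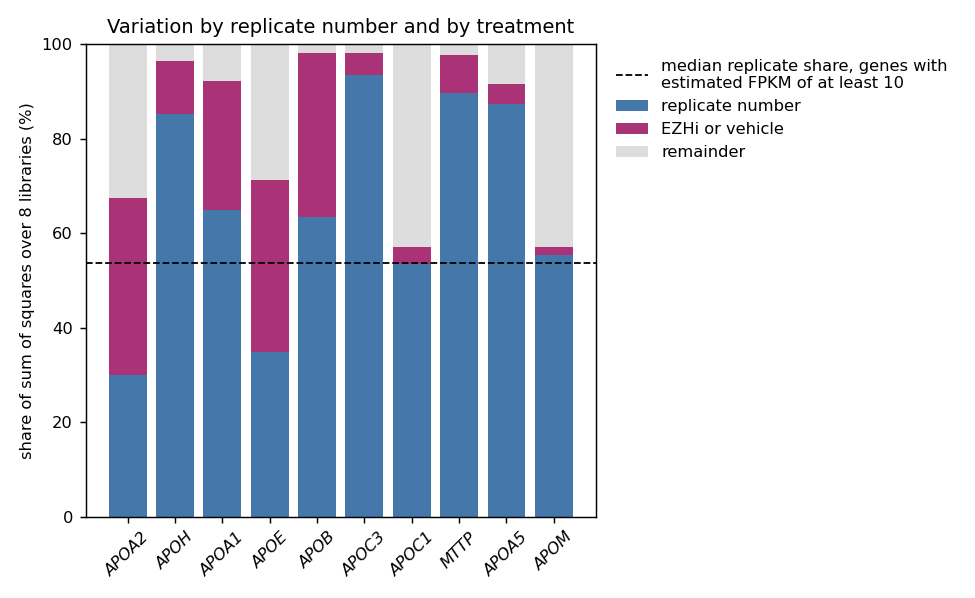
Share of the sum of squares over the 8 libraries (y axis, percent) that lies between replicate numbers (blue), between EZHi and vehicle (purple) and in the remainder (grey). The dashed line is the median replicate share of genes whose estimated FPKM reached 10 (53.7%), and 7 of the 10 blue bars end above it.

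The order of the libraries was shared between members. In vehicle, replicate 2 was lowest for 9 of the 10 genes and replicate 3 highest for 9, the exceptions being APOM at the bottom and APOE at the top, where replicate 4 took that place. In EZHi, replicate 2 was lowest for 7 and replicate 3 highest for 7. The hepatocyte markers ALB, AFP, TTR, TF, SERPINA1 and AHSG had replicate 2 lowest and replicate 3 highest in both groups, while FGB and HNF4A did not. The share of all genes with this order was not computed, so the order is not read as particular to the apolipoproteins. Deviations from the group means correlated positively for all 45 pairs of genes over the 8 libraries, with a median r of 0.79 and a range from 0.30 to 0.98, and 22 pairs exceeded 0.8. These points share libraries and their scaling, and pairs of other genes were not examined in this way. APOC3 had the highest median correlation with the other members (0.95) and APOE the lowest (0.59).

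Over all 8 libraries, the genes whose pattern was most like that of APOA1, among the 7808 other genes whose estimated FPKM reached 10, were AMBP (r = 0.996), TMEM106A (0.988), LAMB2 (0.984), AZGP1 (0.982) and PRODH2 (0.981). For APOB they were COPG2 (0.983), PRTG (0.977), CSF3R (0.975), AZGP1 (0.972) and CYP4F2 (0.971). AZGP1, which encodes a secreted plasma glycoprotein, stood in both lists.

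Levels were then ordered by the mean estimated FPKM. By the study's methods, the length used for a gene is the average over its annotated transcripts, whichever of them the cells express. The order between genes is therefore approximate. APOA2 stood at 4857, the fifth highest of all genes tested, followed by APOH at 2180, APOA1 at 1414, APOE at 1294, APOB at 1132, APOC3 at 228, APOC1 at 104, MTTP at 55.9 and APOA5 at 25.8. APOM, listed at 0.682, was left out of this order because of the low values of its whole region. The values of APOA2 lay above those of APOH in every library without overlap, as did those of APOB above APOC3. APOA1 and APOE did not differ beyond their spread, with a mean log2 gap of 0.09 ± 0.29 (SD over 8 libraries) and APOA1 higher in 5 of 8. APOE exceeded APOB by 0.21 ± 0.23 in 7 of 8 libraries. Every other neighbouring pair of these 9 genes kept its order in 8 of 8 libraries.

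To compare neighbours independently of library scaling, 4 ratios within libraries were compared between groups by exact permutation (two-sided, 70 assignments, smallest possible p 0.0286). APOC3 and APOA1 are separated by 2.68 kb on chromosome 11, with APOA5 a further 37.3 kb from APOC3, and APOE and APOC1 are separated by 4.85 kb on chromosome 19. The log2 ratio of APOC3 to APOA1 in vehicle was -2.68 ± 0.42 (SD, n = 4), and in EZHi it was -2.80 ± 0.37 (SD, n = 4, exact permutation p 0.657, adjusted p 0.876). That of APOA5 to APOC3 was -2.98 ± 0.30 (SD, n = 4) and -3.11 ± 0.35 (SD, n = 4) (exact permutation p 0.571, adjusted p 0.876). That of APOC1 to APOE was -3.57 ± 0.25 (SD, n = 4) and -3.72 ± 0.19 (SD, n = 4) (exact permutation p 0.4, adjusted p 0.876). That of MTTP to APOB was -4.41 ± 0.48 (SD, n = 4) and -4.44 ± 0.27 (SD, n = 4) (exact permutation p 0.971, adjusted p 0.971). The unadjusted exact permutation p-values, from 0.4 to 0.971, all lay far above the smallest possible one. After adjustment over the 4 ratios, a single ratio at the smallest possible p could not have been called. The adjusted p-values therefore cannot decide whether a single ratio changed, and no absence of change is read from them. The permutation between groups also took no account of the replicate numbers. Within replicate numbers, the ratio of APOC3 to APOA1 was lower in EZHi in 3 of 4, with a largest difference of -0.19, and unchanged in replicate 1 (-3.05e-06). An exact sign-flip permutation gave a p of 0.125, the smallest it can give with 4 pairs, but this counts the replicate 1 pair as lower. The other ratios were lower in 3 of 4. The ratio of MTTP to APOB varied 2.25-fold among the vehicle libraries themselves.

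Other genes of lipoprotein metabolism were examined as a list of 88 symbols, of which 83 were in the table and 82 were tested. With group only, 12 were called higher and 6 lower, against 8.85% and 4.27% of all genes tested, and the median log2 fold change was 0.029. The block called 27 higher and 11 lower, against 14.9% and 15.1% of all genes. By role, 3 of 14 genes grouped as other apolipoproteins, 1 of 19 assembly and secretion genes and 3 of 8 genes of HDL formation and remodelling were called higher with group only. So were 1 of 6 lipases and regulators, 2 of 14 receptors and 2 of 21 transcriptional regulators. The group of other apolipoproteins includes PON1, a paraoxonase and not an apolipoprotein, which is 1 of its 3 higher calls. Called lower were 1 of the other apolipoproteins, 1 of the assembly and secretion genes, 2 of the receptors and 2 of the transcriptional regulators.

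**Figure D4:**
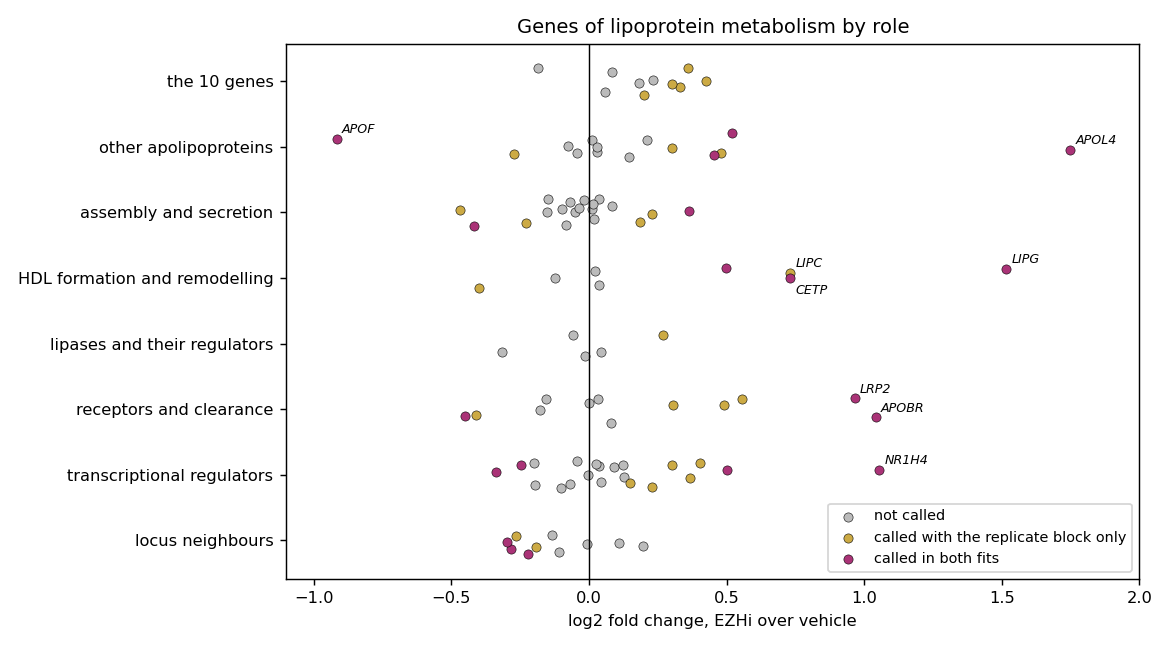
Log2 fold change (x axis, EZHi over vehicle) of the genes tested, by role (y axis, points spread vertically for legibility). Purple points were called in both limma fits, yellow points with the replicate block only and grey points in neither, and genes shown beyond 0.6 in either direction are named. The largest rises, APOL4 at 1.75 and LIPG at 1.51, lie far to the right of the 10 genes in the top row.

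Of 8 genes of HDL formation and remodelling, 3 were called higher, LIPG and CETP among them. LIPG, the endothelial lipase that hydrolyses HDL phospholipids, was at 5.45, 5.72, 5.65 and 5.85 in vehicle and at 6.91, 7.24, 7.12 and 7.46 in EZHi, without overlap, a log2 fold change of 1.51 (limma adjusted p 7.64e-05). CETP, which exchanges cholesteryl esters for triglycerides, rose by 0.73 (limma adjusted p 0.0228). CETP lost its call without any of vehicle replicate 4 and EZHi replicates 1, 3 or 4 and with quantile normalization, with limma adjusted p up to 0.0637. NR1H4, which encodes the bile acid receptor FXR, rose from 7.83 to 8.89 on the log2 scale, by 1.06 (limma adjusted p 0.00411).

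Several further rises concerned genes of low expression. APOL4, of the apolipoprotein L family, rose by 1.75 (limma adjusted p 0.00311) with a mean estimated FPKM of 0.959, and its close paralogs may share reads with it. APOBR, a receptor for APOB-containing particles, rose by 1.04 (limma adjusted p 0.000385), LRP2, the receptor megalin, by 0.97 (limma adjusted p 0.000383), and PON1, the HDL-associated paraoxonase, by 0.52 (limma adjusted p 0.0168). Their mean estimated FPKM were 0.374, 0.155 and 0.418. At such levels the size depended on the transformation, and on the log2(FPKM + 0.5) scale the differences were 1.06 for APOL4, 0.43 for APOBR, 0.22 for LRP2 and 0.24 for PON1. PON1 was not called without vehicle replicate 4 or with quantile normalization (limma adjusted p up to 0.0852).

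Genes called lower included an apolipoprotein, a receptor and regulators. APOF, a lipid transfer inhibitor, fell from 8.05 to 7.13, a log2 difference of -0.92 (limma adjusted p 0.00411). VMP1, which acts in lipoprotein secretion, changed by -0.42 (limma adjusted p 0.0129), VLDLR by -0.45 (limma adjusted p 0.0273), the nuclear receptor gene NR1H2 by -0.34 (limma adjusted p 0.0276) and FOXA1 by -0.25 (limma adjusted p 0.0125). VLDLR and NR1H2 kept their calls in 8 of 15 alternatives, and FOXA1 lost its call with quantile normalization (limma adjusted p 0.125) and with centring.

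Of the genes followed whatever their result, HNF4A, the nuclear receptor that activates many apolipoprotein promoters, was at 12.73 in vehicle and 12.77 in EZHi (limma adjusted p 0.85 with group only, 0.668 with the block). DGAT2, an enzyme of triglyceride synthesis, had 0.18 (limma adjusted p 0.0383 with the block, 0.396 with group only).

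The genes that flank the apolipoprotein loci on chromosomes 11 and 19 had mostly negative values. Of 10 neighbours tested, 8 had a negative log2 fold change and the median was -0.16, in a table where 27.1% of genes with an FPKM of 10 or more were positive. With group only, 3 were called lower, namely BUD13 (-0.28) and PAFAH1B2 (-0.22) near APOA1 and NECTIN2 (-0.30) near APOE, and 0 were called higher. These 3 were named after their values were seen. With the block, 5 were called lower. Among genes with an FPKM of 10 or more, 9.16% were called lower with group only and 32.5% with the block, and nothing particular to the neighbours is read from these counts. The difference between the neighbours and the apolipoproteins was not tested.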

How the data were processed

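RNA-seq of 8 HepG2 libraries was analysed from the single deposited table. According to the study's methods and processing notes, the authors mapped paired reads of 150 bp to hg38 with HISAT2 (2.2.1 in the notes), summed reads over exons of each gene using HTSeq 0.9.1 without regard to strand, removed genes with under 10 reads in all, and normalized with the regularized log of DESeq2 (1.40.2 in the notes) and by transcript length. The deposited values are log2, although the table is named as FPKM, and ran from -6.81 to 19.01. The regularized log shrinks changes of low genes. Of 25604 deposited rows, 1 repeated a gene and was dropped. Depth is unknown, because the values are normalized for it, so no counting interval can be given.

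Gene models were those of GENCODE 44 (GRCh38). An estimated FPKM is 2 to the power of the value divided by 25.6, which brings the mean library sum to the FPKM scale. Genes with a mean of at least 0.1 were tested with limma 3.58.1 in R 4.3.3 (trended prior, two-sided), with group as the only term or with the replicate number added as a block. The block was used because every same-number correlation of deviations exceeded 0.1. On values simulated for 20153 genes, group only called 21, 41, 49 and 50 of 50 genes changed by 0.5, 1, 2 and 3 log2 units, and 9 unchanged genes. The simulated libraries were independent, without the shared deviations of replicate numbers seen in the data. The fit with the block was not simulated, so these counts do not apply to its calls. Alternatives were other filters, a pseudocount of 0.5, median of ratios, quantile normalization, centring, the block and leaving out each library. Python 3.11.15 was used for the rest.

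The 10 genes, the lists and the tests were chosen with earlier results of these data known. All 10 genes are named. Named from the list were up to 8 called genes per direction by size, plus HNF4A, DGAT2 and others, and the 5 genes most like APOA1 and APOB by Pearson r. Some genes that this rule names are not reported here or plotted, although counts over the list include them. Proteins were not printed, since no sequence table was used for them.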

Additional observations from a re-analysis of the deposited data

Results flagged for a closer look

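Libraries that stood apart from the other 3 of their group were sought with Dixon's ratio at its 95% limit. Of 28 groups of values (the 10 genes and the 4 ratios in each treatment), 1 met this, where chance gives about 1.4. The log2 ratio of APOA5 to APOC3 in vehicle replicate 3 was -3.44, against -2.88 to -2.80 in vehicle replicates 1, 2 and 4, a Dixon ratio of 0.883. EZHi replicate 3 also had the lowest ratio of its group, at -3.57.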

How the results depend on the processing

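No member was called with group only under any of the 15 alternatives except the replicate block, which called 5 higher. Same-number libraries showed correlated deviations, and the block changed no call to lower. Of 149 member values, 134 kept direction and side of the threshold, 1 was 0, 5 passed the threshold (the block) and 9 changed sign without a call. Quantile normalization gave APOM -0.16, and its ratios of APOC3 to APOA1 and of MTTP to APOB changed by 0.0061 and 0.080. APOA2 held 1 rank there, so its change was 0. APOM was not tested at a filter of 1. Leaving out 1 library moved APOC3 from -0.033 (without vehicle replicate 2) to 0.64, and it was -0.0042 without EZHi replicate 3. APOA5 ranged from -0.10 (without vehicle replicate 2) to 0.37, APOC1 from -0.0094 to 0.22 and APOM from -0.041 to 0.20 (both negative without vehicle replicate 2 or EZHi replicate 4, APOM also without vehicle replicate 4), MTTP from 0.042 to 0.64, APOA1 from 0.23 to 0.59, APOB from 0.25 to 0.49, APOE from 0.13 to 0.30, APOH from 0.070 to 0.35, and HNF4A from -0.026 to 0.081. The change in the ratio of APOC3 to APOA1 ranged from -0.28 to 0.054, of APOA5 to APOC3 from -0.27 to 0.031, and of MTTP to APOB from -0.22 to 0.17. The fits without 1 library used group only and kept the other library of the same number. With the block, leaving out both libraries of a number gave 3 to 4 members called. APOC3 then ranged from 0.21 (without replicate 2) to 0.37 (without replicate 1). In the list of lipoprotein metabolism, genes called higher numbered 12, against 7 at a filter of 1 (fewer genes tested), 27 with the block, and 8 to 13 without 1 library. Genes called lower numbered 6, against 3 with centring, 11 with the block, and 4 to 7 without 1 library. The causes were not tested. Unknown depth limits all values near the floor.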

Other observations

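Several genes of lipid handling from the list differed between replicate numbers far more than between treatments. PPARA, the nuclear receptor that senses fatty acids, was at 10.20, 10.00, 10.70 and 10.30 in vehicle replicates 1 to 4 and at 10.21, 10.06, 10.63 and 10.29 in EZHi, and 99.1% of its sum of squares lay between replicate numbers. ABCA1, the exporter that loads cholesterol onto APOA1, was at 9.63, 9.39, 10.32 and 9.67 and at 9.68, 9.49, 10.25 and 9.75 (98.6%). ANGPTL4, an inhibitor of lipoprotein lipase, was at 7.92, 7.06, 8.70 and 8.52 and at 7.78, 7.23, 8.85 and 8.12 (96.2%). In each of these, replicate 2 was lowest and replicate 3 highest in both groups, the order seen for most apolipoproteins. The labels do not say what the replicate numbers stand for. PPARA, ABCA1 and ANGPTL4 were picked after their values were seen. Among the hepatocyte markers, TF, AFP, AHSG and ALB had 96.9%, 94.8%, 90.9% and 90.5% between replicate numbers, with the same order in both groups. TTR had that order with 49.3%, and FGB had 14.1%. Neither the share nor the order was therefore particular to genes of lipid handling.

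Of the 8 hepatocyte markers, 1 was called with group only, near the 13.1% of all genes. FGB, a fibrinogen chain, had a log2 increase of 0.92 (limma adjusted p 0.00167), and ALB, at -0.28, had a limma adjusted p of 0.638 with group only and 0.0314 with the block. Of the markers of other cell types, 7 were tested and 1 was called, also near that share, VWF, at 1.446 (limma adjusted p 0.00537).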
